A study of Mus musculus with 13 samples.

Results

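Neat1, Malat1 and 7 mRNAs of paraspeckle proteins were examined in murine liver. The members were the rows of the authors' liver table with the symbols Neat1, Malat1, Sfpq, Nono, Pspc1, Rbm14, Tardbp, Hnrnpk and Matr3. All 9 were found, each in 1 row, among 11779 listed genes. The list was chosen by gene name around Neat1, when the fold change of Neat1 in the authors' own liver comparison was already known. That fold change is not shown or used here. The study depleted the lncRNA LL35, also named Falcor, with antisense oligonucleotides (ASOs), which are short modified DNA strands that direct the cleavage of a matching RNA. Livers of 3 Balb/c mice that had received a mix of 5 GalNAc-conjugated LL35 ASOs were compared with livers of 3 Balb/c mice that had received a GalNAc-conjugated ASO against firefly luciferase (Luc ASO). GalNAc is a sugar that is taken up by hepatocytes. The LL35 mix was given at 150 mg/kg, which the labels state for each ASO and the methods state for the total. The labels count 5 ASOs in the mix, and the study's own list of conjugates for mice is shorter than that. Tissue was collected on day 5. The labels give neither the age nor the sex of the mice, and no untreated mice are among the liver groups. The 7 libraries of AML12 cells were not analysed here.

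Neat1 is a nuclear lncRNA on which paraspeckles are built. It has a short form and a long form that start at the same place, and the long form is the one that holds the paraspeckle together. Malat1 is a neighboring nuclear lncRNA that collects in nuclear speckles, bodies rich in splicing factors. Sfpq, Nono and Pspc1 encode the 3 proteins of the DBHS family, which bind Neat1 and each other. Rbm14 encodes an RNA-binding protein needed to form paraspeckles, Hnrnpk one that favors the long form of Neat1, and Tardbp encodes TDP-43, an RNA-binding protein found in paraspeckles. Matr3 encodes matrin 3, an RNA-binding protein of the nuclear matrix.

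The values analysed were the authors' mean normalized counts, in which the reads of a gene were scaled for library depth and averaged over the compared libraries. The table has a single such value for each gene and no value for a single mouse or for either group. The same table also holds the fold changes and tests that the authors computed between the groups, and these were not used. The level of a member in LL35 ASO livers was thus not set against that in Luc ASO livers, and whether the paraspeckle protein mRNAs moved with Neat1 was not analysed here. No error, replicate spread or test can be given for any level, and neighbors in an order of levels can be neither separated nor taken as equal. Library sizes are not in the table, which leaves the sequencing depth unknown. The lowest mean normalized count of a listed gene was 15.6, the median was 235 and the upper quartile was 625. Genes that are not listed have no value here, and each percentage of genes below a level counts listed genes only. The tissue was checked with marker genes. All 8 hepatocyte markers were listed, and the lowest of them, the urea cycle enzyme gene Ass1, had a mean normalized count of 11991. Markers of other liver cells were also present. All 5 Kupffer cell, all 5 endothelial and all 5 stellate cell markers were listed. Kupffer cell markers ran from 194 for Adgre1 to 1954 for Clec4f. Endothelial markers ran from 121 for Lyve1 to 2171 for Stab2. Stellate cell markers ran from 51.8 for Des to 1823 for Reln, with a median of 197, below the median listed gene. Of the T and B cell markers only Cd3e was listed, with 18.6. Of the erythroid transcripts Hba-a1 was listed with 316 and Hbb-bt with 42.8, and Hba-a2 and Hbb-bs were not listed. Of the cholangiocyte markers, Sox9 was listed with 41.1, and Epcam, Krt19 and Krt7 were not among the listed genes. A bulk level cannot separate how many cells hold an RNA from how much each of them holds, and the cell type that gave the reads of a member was not tested.

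Both lncRNAs were among the most abundant RNAs of the liver table. Malat1 had a mean normalized count of 80679.5, which placed it at rank 9 of 11779 genes, directly after Apoa1, the main protein of HDL particles. Neat1 had a mean normalized count of 51037 and stood at rank 18. They held rank 1 and rank 2 among the 234 genes that the table types as ncRNA, a class with a median of 51.3. Malat1 took 0.714% and Neat1 0.452% of the sum of all mean normalized counts. Together they took 1.17% of it, against 0.0597% for the 7 protein mRNAs.

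Because longer RNAs give more reads, levels of different genes were compared per kb of the longest transcript in GENCODE release M21. This length was 20771 bases for Neat1 and 6983 bases for Malat1. Malat1 then had 11554 mean normalized counts per kb and Neat1 had 2457, so Malat1 was 4.70-fold higher per kb. Without length scaling the ratio was 1.58. Per kb, Malat1 stood at rank 44 and Neat1 at rank 211 of the 11754 genes with a length. Among the ncRNA genes, Malat1 came at rank 2 and Neat1 at rank 7 per kb, and the other genes above Neat1 were short RNAs such as Rny3, a Y RNA. The annotation holds 4 Neat1 transcripts of 711 to 20771 bases. The gene count joins the short and the long form, and a value per kb of the long form is lower than the level over the part that both forms share wherever short RNA is present. How much of each form the livers held cannot be read from this value.

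**Figure D1:**
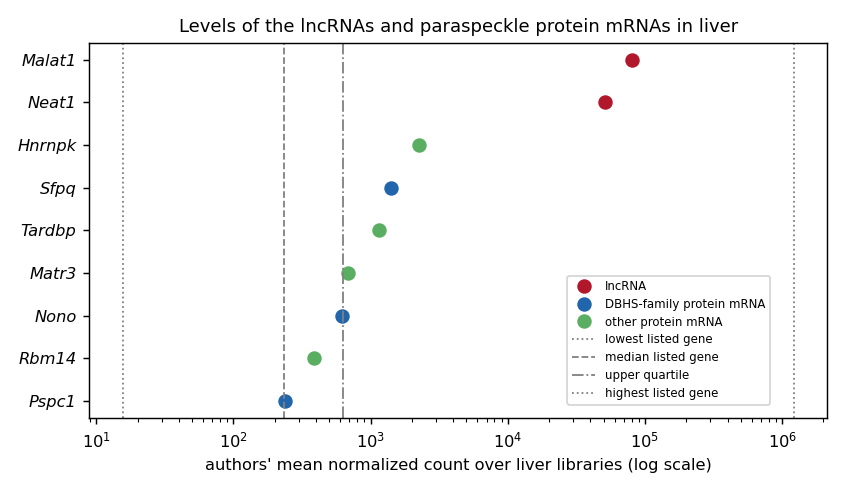
Authors' mean normalized count of the 9 members in liver (x axis, log scale), 1 point per gene with no error because the table holds no single-mouse values. Colors mark the lncRNAs, the DBHS mRNAs and the other protein mRNAs, and grey lines mark the lowest, median, upper-quartile and highest listed gene. Neat1 (51037) and Malat1 (80679.5) lie far to the right of the 7 protein mRNAs, which run from 236 for Pspc1 to 2257 for Hnrnpk.

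The 3 DBHS mRNAs differed in level. Sfpq had a mean normalized count of 1416 and 89.6% of the listed genes lay below it. Nono had 614, with 74.5% of genes below it. Pspc1 had 236, with 50.1% of genes below it, close to the median gene. The same order held per kb, at 409 for Sfpq, 240 for Nono and 57.4 for Pspc1. Sfpq was thus 1.71-fold above Nono and 7.12-fold above Pspc1 per kb, and Nono was 4.18-fold above Pspc1. The order Sfpq, Nono, Pspc1 also held with all exons joined as the length and with the coding part alone, where Sfpq was 4.49-fold above Pspc1. Pspc1 was the lowest of the 7 protein mRNAs on each of these scales.

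Among the other 4 protein mRNAs, Hnrnpk was highest. It had a mean normalized count of 2257, with 94.1% of genes below it, and 760 per kb, 1.86-fold above Sfpq. That ratio was 1.17 with all exons joined and 2.40 per kb of coding length. Tardbp had a mean normalized count of 1148, Matr3 690 and Rbm14 389. Per kb of the longest transcript, these were 153 for Tardbp, 110 for Matr3 and 111 for Rbm14. The place of Tardbp depended on the length used. Its longest transcript had 7477 bases, of which its longest coding part took 1242, and per kb of coding length it had 924 and came above Sfpq at 675. Per kb of the longest transcript it came below both Sfpq and Nono. Matr3 was 1.40-fold above Rbm14 per kb of coding length, and 0.68 of it with all exons joined. The first place of Hnrnpk and the last place of Pspc1 were the same on the count scale and under all 3 lengths.

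**Figure D2:**
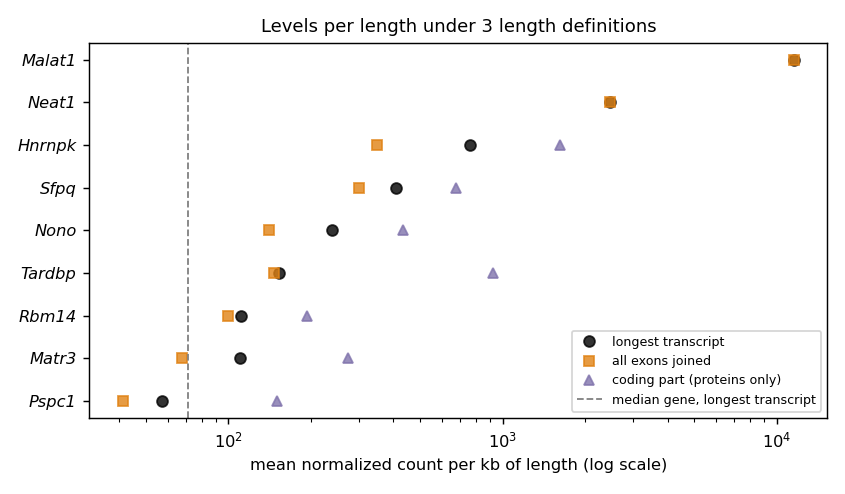
Mean normalized count per kb (x axis, log scale) of the 9 members with length taken as the longest transcript (circles), all exons joined (squares) or the coding part (triangles, protein mRNAs only). Malat1 and Neat1 stay rightmost, Hnrnpk is the highest and Pspc1 the lowest protein mRNA under each length, and Tardbp moves most, from 147 to 924.

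Set against the 7 protein mRNAs, Neat1 RNA was abundant. Per kb, Neat1 was 3.23-fold above Hnrnpk, 6.01-fold above Sfpq and 42.8-fold above Pspc1. It was 3.48-fold above the sum of the 3 DBHS mRNAs, which was 706 per kb. It was 1.34-fold above the sum of all 7 protein mRNAs, which was 1840 per kb. These ratios depended on the length used. With all exons joined, Neat1 was 7.04-fold above Hnrnpk and 2.15-fold above the sum of all 7. Coding length, which Neat1 lacks, gave higher protein mRNA values, at 1622 per kb for Hnrnpk, 924 for Tardbp and 675 for Sfpq. Against those values the 2457 per kb of Neat1 was above each protein mRNA but below the sum of all 7. Coding-length values divide all reads of a gene by its coding part alone, which raises them by construction. Neat1 was divided by its full transcript length, so this last comparison sets unlike lengths against each other and cannot rank Neat1 against the sum. All of these comparisons are of RNA levels, and the table holds no protein amounts.

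The members were then placed beside 30 other genes whose proteins have been found in paraspeckles. Of these, 29 were listed, and Celf6 was not among the listed genes. Their median mean normalized count was 443, against 690 for the 7 protein members, and a median of 66.6% of listed genes lay below them, against 77.1% for the members. Near the top were the splicing regulator gene Hnrnph1, with a mean normalized count of 1379, and Ewsr1, which encodes an RNA-binding protein, with 1139. None of the 29 exceeded the mean normalized count of Sfpq, and per kb only Ewsr1 did, at 440. The lowest were Cirbp, the cold-inducible RNA-binding protein, with 125, Ss18l1 with 63.7 and Zc3h6 with 27.4. Pspc1 stood above 8 of the 29 on the count scale.

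A few of these genes act on the choice between the Neat1 forms. Cpsf6 and Nudt21 encode subunits of the cleavage factor that ends the short form, and hnRNP K, the product of Hnrnpk, competes with it. Cpsf6 had a mean normalized count of 1029, or 158 per kb, and Nudt21 had 146, or 29.0 per kb. Cpsf6 was 5.43-fold above Nudt21 per kb, and Hnrnpk was 4.82-fold above Cpsf6. Per kb of coding length these ratios were 2.73 and 2.78, and with all exons joined the first was 3.60. These genes were singled out after their values were seen.

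Nuclear speckle proteins, the setting of Malat1, were set beside it in the same way. All 16 were listed, with a median mean normalized count of 1187, and a median of 87.3% of genes lay below them. Srrm2 had a mean normalized count of 5678, Son 4637 and Sf3b1 2645. Srrm2 and Son encode scaffold proteins of the speckle, and Sf3b1 a subunit of the U2 snRNP. At the low end were U2af1 with 324, Srsf7 with 299 and Rnps1 with 89.8. Per kb, the highest was the splicing factor gene Srsf2 with 888, against 11554 for Malat1. Of the 16 genes, 6 had a higher mean normalized count than Sfpq.

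Other lncRNAs of the fixed list were far less abundant than Malat1 and Neat1. Of 18, 13 were listed, with a median mean normalized count of 103. Kcnq1ot1, an imprinted antisense lncRNA, had the highest mean normalized count, 2491, followed by Norad with 627 and Firre with 524. The lowest were Epb41l4aos with 64.3, Snhg5 with 55.8 and Snhg20 with 51.8. Per kb, the highest of the 13 was Snhg3 with 210, against 2457 for Neat1. Kcnq1ot1 had only 26.8 per kb, close to the lowest of the list, Snhg20 with 24.1. Meg3, Miat, Rian, Snhg14 and Snhg17 were not among the listed genes. Outside this list, the ncRNA gene next after Neat1 was Xist, the nuclear lncRNA of X inactivation, with a mean normalized count of 19642 and 1095 per kb. It was named after its value was seen. X inactivation takes place in female cells, so this level means that female mice were among those pooled. How many of the mice were female cannot be read from a single pooled value.

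**Figure D3:**
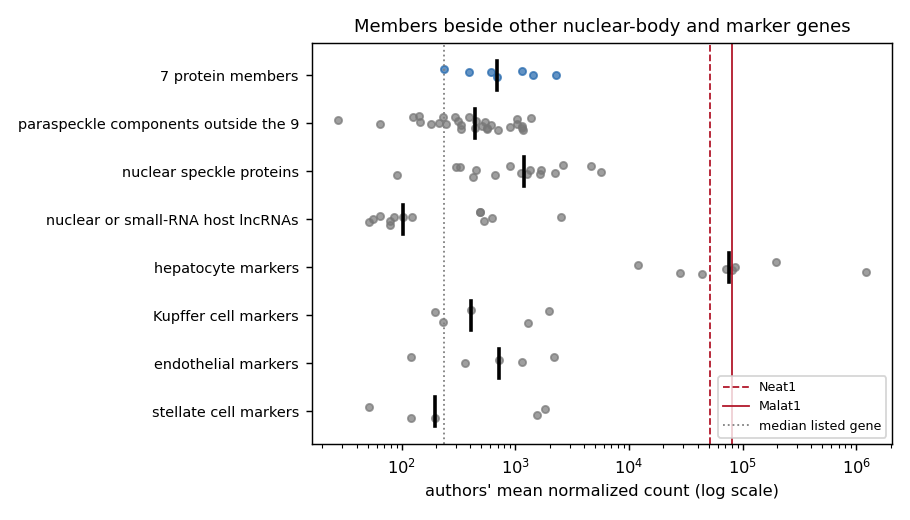
Authors' mean normalized count (x axis, log scale) of the 7 protein members (blue), the other nuclear-body lists and the liver cell marker lists (grey), 1 point per listed gene, with black bars at list medians. Red lines mark Neat1 and Malat1, which lie to the right of the genes of every list except hepatocyte markers, and the vertical spread of points within a row carries no value.

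Some of the counts can hold or lose reads through other genes. Neat1 and Malat1 are neighbors on the same strand in GENCODE release M21, with a single small RNA gene, Gm27702, between them. Gm27533, Gm27505 and Gm28006 overlap Neat1 on its own strand, and Gm27694 overlaps Malat1 on its own strand. Likewise, Mir7-1 overlaps Hnrnpk and Gm36989 overlaps Matr3 on the same strand. Of the 50-base words of the longest Neat1 transcript, 1.37% also occur in transcripts of other genes, and for Malat1 6.36% do, mostly in Gm37376, a gene on the opposite strand within it. The longest transcripts of Sfpq and Pspc1 shared 0% of such words, although Gm12940 overlaps Sfpq on the same strand. The shares were 19.2% for Rbm14, 24.4% for Tardbp, 26.5% for Nono, 28.7% for Matr3 and 37.8% for Hnrnpk. Nono shared most with Gm8806 and Hnrnpk with Gm7964. Tardbp shares 23.2% of its words with Masp2, a complement protease gene on the opposite strand whose own mean normalized count was 2279. Rbm14 shares 16.7% with Gm21992, a gene on the same strand with a mean normalized count of 19.3, and Matr3 shares 26.8% with Gm28285. The libraries were made with a kit that keeps the strand, but the strand setting of the counting is not given in the sources used here. The methods name the GeneCounts mode of STAR for the counting. How it treated shared reads here was not tested. The levels of members with shared words or overlapping genes are uncertain to that extent. The largest shares were those of Hnrnpk, Matr3, Nono, Tardbp and Rbm14.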

How the data were processed

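Total RNA from liver was depleted of rRNA and sequenced as single reads. The authors aligned the reads with STAR 2.5.3a, as the submitters' processing notes and the methods state, counted them on Ensembl genes and normalized them with DESeq2 by the RLE method. The deposited value used here, 1 per gene, is the mean normalized count, a signal that the authors averaged over the compared libraries. Its 5 other numeric columns hold the authors' own comparison (log2 fold change, standard error, Wald statistic, p-value and adjusted p-value) and were not used. No column belongs to a single mouse, and depth and precision are unknown. The genome build is not given in the sources used here, so no positions are given.

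Levels were ranked among the 11779 listed genes and divided by transcript length from GENCODE release M21, which holds 11754 of the identifiers. Words of 50 bases were matched, on both strands, to all transcripts of that release. No test between groups was run. The ranking was tested on simulated data, where 200 of 200 placed genes had the right rank. The alternatives were a minimum mean normalized count of 50, protein-coding genes alone, level per kb, coding length and, chosen after the data were seen, all exons joined. A planned comparison of DBHS protein sequences was not run. Exact 95% binomial intervals over genes were used only to judge whether a percentage moved. Named were all members and, of each nuclear-body list, the 3 highest and 3 lowest genes, except that 1 of them is not reported here. Members and lists were chosen with earlier results of these data known. Python 3.11.15, pandas 2.3.3, numpy 2.4.6, scipy 1.17.1 and matplotlib 3.10.9 were used.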

Additional observations from a re-analysis of the deposited data

How the results depend on the processing

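No paired analysis was possible because the result comes from no test and the table holds no value of a single library. For the same reason no library could be left out, and no other normalization or test could be tried. All 9 members lay above the median listed gene, and 8 did when only genes at or above 50 mean normalized counts were ranked, among protein-coding genes and per kb, Pspc1 being the exception each time. The ratio of Malat1 to Neat1, 4.70 per kb, was 1.58 without length scaling, and that of Hnrnpk to Pspc1, 13.3 per kb of the longest transcript, was 8.48 with all exons joined. The median percentage of genes below each list fell, since fewer low genes were ranked, with this minimum of 50. It was then 72.9% for the 7 protein members, 60.5% for the other paraspeckle genes, 84.9% for the speckle genes and 16.5% for the other lncRNAs, the last against 29.6% among all genes. Per kb it was 72.2%, 64.7%, 84.7% and 58.3% in the same order. For single members, 24 of the recomputed percentages and levels per kb moved and 19 did not. For the main results, 10 moved and 8 did not. Moved means outside the exact 95% interval of the percentage or, for other values, by more than 1.5 times. This interval measures no spread between mice, and the minimum of 50 lowers the percentage of every member by construction. Coding length likewise raises the level per kb of every protein mRNA by construction. For Neat1 and Malat1 all exons joined have the length of the longest transcript, so those values and their ratio could not move. The counts of moved values include these fixed outcomes. The planned comparison of proteins was not run. Unknown depth limits all values.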
